A study of Mus musculus with 80 samples.

Results

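The genes described here write and erase N6-methyladenosine (m6A), a methyl mark on adenosines of RNA. They were chosen by name and not by a measured value, although earlier results of these data were known. They are Mettl3, Mettl14, Wtap, Zc3h13, Rbm15, Rbm15b, Cbll1 and Mettl16 among the writers and Fto and Alkbh5 as erasers, 10 of the 22556 genes in each deposited expression table. All 10 were found and all 10 passed the filter on low values (a mean of at least 1 CPM, the reads of a gene scaled to a common library size) in every table.

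METTL3 and METTL14 form the heterodimer that methylates most m6A sites while RNA is still on chromatin. METTL3 carries the active site, and METTL14 helps to hold the RNA. WTAP binds the heterodimer and keeps it in the nucleus, ZC3H13, RBM15, RBM15B and CBLL1 are further subunits, and RBM15 and RBM15B bind RNA and are known for their contact with Xist. METTL16 works alone on a few structured RNAs, of which the best known is the Mat2a transcript, and FTO and ALKBH5 remove the methyl group.

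Chromatin-associated RNA, the RNA left in the chromatin pellet of lysed nuclei, was sequenced (ChrRNA-seq) in 80 libraries of Cast x 129S mouse ES cells grown on inactivated feeders. In all of these cells a TetOn promoter replaces that of Xist on a single X, so that doxycycline (Dox, 1 µg/mL for 24 h) induces Xist. The degron lines carry an FKBP12 F36V tag on METTL3 (clones G4 and H1 at the N-terminus, C3 and H5 at the C-terminus), ZCCHC8 (Z4F, Z12H), YTHDC1 (Y9F, Y12H) or ZFC3H1 (8H, 11A), and the compound dTAG-13 (dTAG) depletes the tagged protein. YTHDC1 is a nuclear m6A reader, and ZCCHC8 and ZFC3H1 belong to NEXT and PAXT, which hand nuclear RNA to the exosome. The inducible Xist is on the Cast allele in the METTL3, ZFC3H1 and transgene lines, and on the 129S allele, in a form labelled Endogenous Xist + Bgl, in the YTHDC1 and ZCCHC8 lines. The transgene lines descend from METTL3 clone H5, so that they also carry the METTL3 degron, and express GFP-METTL3 from the Rosa26 locus, either wild type (WT) or D395A, a change in the catalytic site. There was 1 clone of each form with both X chromosomes (WT_XX, D395A_XX). There was also 1 clone of each with only the X that has inducible Xist (WT_XiO, D395A_XiO). Each was sequenced in 2 replicates, and the replicate number of the titles was taken as the experiment, which no label names. Each line was sequenced untreated, with dTAG alone (26 h in the titles, 2 h in the treatment field), with Dox (24 h), and with both, where dTAG was given 2 h ahead of the 24 h of Dox. The YTHDC1 clones were sequenced in 2 replicates, also taken as experiments and called YTHDC1_exp1 (in a table with ZCCHC8) and YTHDC1_exp2 here.

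The residue changed in D395A lies in the DPPW motif, which holds the methyl donor. The coding bases of the 10 codons around it in Mettl3, on the minus strand of GRCm38 (RefSeq) at chr14:52297575-52297604, are shown because this site is what separates the 2 transgenes. The capitals mark the 4 codons of the motif, of which the first is the one changed.
Mettl3: gttgtgatggctGACCCACCTTGGgatatt

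Depth was 8.58 to 34.4 M reads per library, and 1 read was worth 0.0291 to 0.117 CPM. No library held fewer than 58 reads of any of the 10 genes, the lowest being Rbm15b. Of 8 stem cell markers, 7 were present in every library, while Sox2 is listed at 0 in all 80. Of 10 feeder markers, 9 summed to 3.39 to 128 CPM (highest in WT_XiO, 47.5 to 128 CPM), and Fn1 alone was at 382 to 2193 CPM. Of these 9, Thbs1 reached 105 CPM, while none of the others exceeded 9.48 CPM (Twist2). The stem cell markers summed to 617 to 805 CPM in WT_XiO and to 1006 to 1666 CPM in D395A_XiO. The part of either set of markers in the results was not tested. In the METTL3 libraries genes under 3 kb took from 0.497% (C3 with Dox) to 4.57% of reads (C3 with dTAG and Dox), and the median of all genes shifted upwards by 0.23 (with Dox) and 0.21 (without Dox) on the log2 scale after dTAG. Scaling by the median ratio of autosomal genes moved these medians to -0.019 in both. It also turned the balance of called genes from 1149 higher and 259 lower to 375 and 600 with Dox, and from 2260 and 848 to 1032 and 1765 without Dox. For ZCCHC8 with Dox the balance went from 3490 higher and 2108 lower to 2614 and 4009. In bulk libraries fewer cells of a type and less RNA per cell cannot be told apart.

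Per kb of counted span, which includes introns, Rbm15 had the most chromatin RNA in untreated cells, with a median of 10.3 CPM per kb over 20 libraries (8.26 to 12.6). Wtap followed at 7.58 CPM per kb (5.87 to 10.2), and the ranges of both overlapped. Mettl3 (3.55), Mettl16 (3.53) and Rbm15b (3.51 CPM per kb) could not be separated, as their ranges overlapped, and Zc3h13 came next with 2.83. Alkbh5 (2.39), Fto (2.10), Cbll1 (1.81) and Mettl14 (1.72 CPM per kb) were the lowest, and each overlapped its neighbours in this order. On the CPM scale without length the order was another: Fto, whose span of 355 kb is the longest of the 10, had a median of 728 CPM over all 80 libraries, while Rbm15b, with a single exon and 3.02 kb, had 12.2 CPM.

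**Figure D1:**
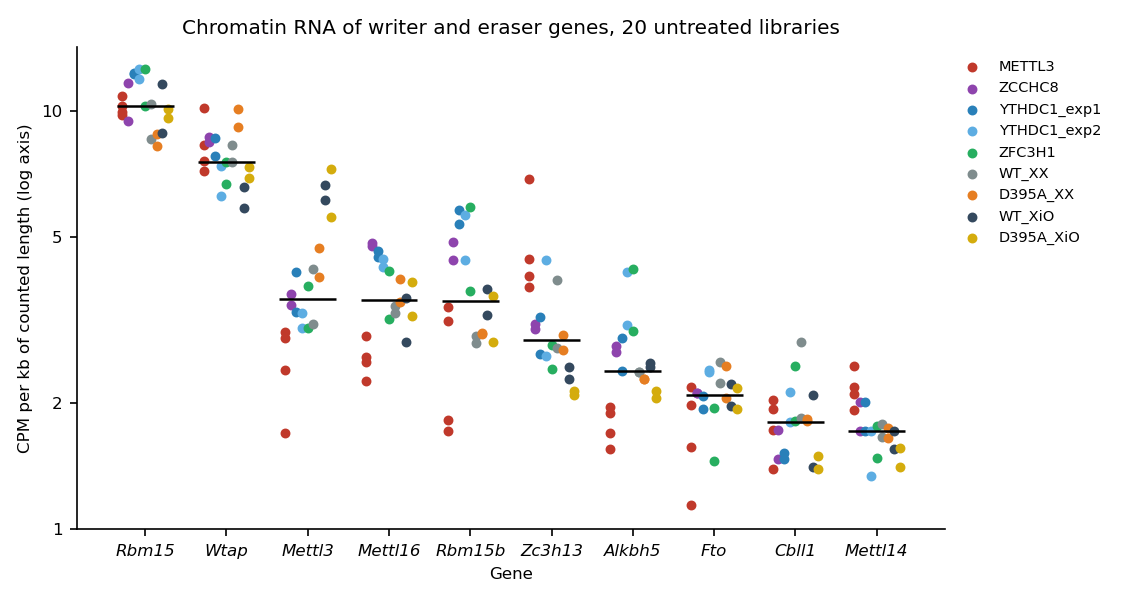
Chromatin RNA of the 10 genes in CPM per kb of counted length (log axis) in the 20 untreated libraries, coloured by line, with the median as a bar. Rbm15 and Wtap lie above the other genes in nearly all libraries, and Mettl3 spans the widest range, from 1.70 in a METTL3 clone to 7.26 CPM per kb in a D395A_XiO library.

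The tests asked whether loss of each protein changes the chromatin RNA of the methylation machinery itself. Changes are log2 differences of CPM + 1 between dTAG and its control, with Dox (both against Dox alone) or without Dox (dTAG against untreated), from limma with its standard error (SE) and a Benjamini-Hochberg (BH) adjusted p over all genes of the table. A gene was called at an adjusted p under 0.05. Over 18 comparisons of single lines, 13 of 180 values were called, 8 higher and 5 lower. METTL3 depletion called 1 of 10 genes with Dox, where 10.5% of all genes were called, and 4 of 10 without Dox, against 23.3% of all genes. ZCCHC8 depletion called 3 of 10 with Dox (40.4% of all genes) and 2 without Dox (36.1%). YTHDC1 depletion in YTHDC1_exp1 called 0 with Dox (15.5% of all genes) and 1 without Dox (19.0%). In YTHDC1_exp2 limma called 0 in both (14.7% of all genes with Dox and 17.8% without). ZFC3H1 depletion called 1 of 10 with Dox (3.15% of all genes) and 0 without Dox (2.15%). In D395A_XX, 0 of 10 were called with Dox (3.19% of all genes) and 1 without Dox (6.01%), and in D395A_XiO 0 were called in either (0.0521% and 0.402% of all genes). In WT_XX and WT_XiO no gene of the table was called (0% in each of the 4 comparisons, with or without a block of experiment). Of 13364 (XX) or 13448 (XiO) genes tested, 14 to 39 had an unadjusted p under 0.05 without the block and 44 to 130 with it. Chance alone would pass more genes at this threshold, so the tests were conservative in the WT lines. The 0% there does not show that a response was absent. With that block the share of all genes called was 6.08% and 9.89% in D395A_XX and 11.4% and 15.3% in D395A_XiO. The same block called 1 of 10 members in each of these comparisons, Rbm15b in D395A_XiO with Dox and Wtap in the others. The share of members called was below that of all genes in each ZCCHC8 and YTHDC1 comparison. The member share was above that of all genes in METTL3 without Dox, in ZFC3H1 with Dox, and in D395A_XX without Dox. With the block of experiment it was above in D395A_XX with and without Dox and below in D395A_XiO with and without Dox. With 10 members these shares are coarse, and the difference from all genes was not tested.

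Where limma called 0 members, the counts at an unadjusted p under 0.05 were 3 (YTHDC1_exp1 with Dox), 2 and 2 (YTHDC1_exp2), 1 (ZFC3H1 without Dox), 1 (D395A_XX with Dox), 1 and 1 (D395A_XiO), and 0 in each of the 4 WT comparisons. The edgeR quasi-likelihood test on recovered reads called 1 member in YTHDC1_exp1 with Dox (Mettl16) and 1 in YTHDC1_exp2 without Dox (Cbll1), and 0 in the others.

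**Figure D2:**
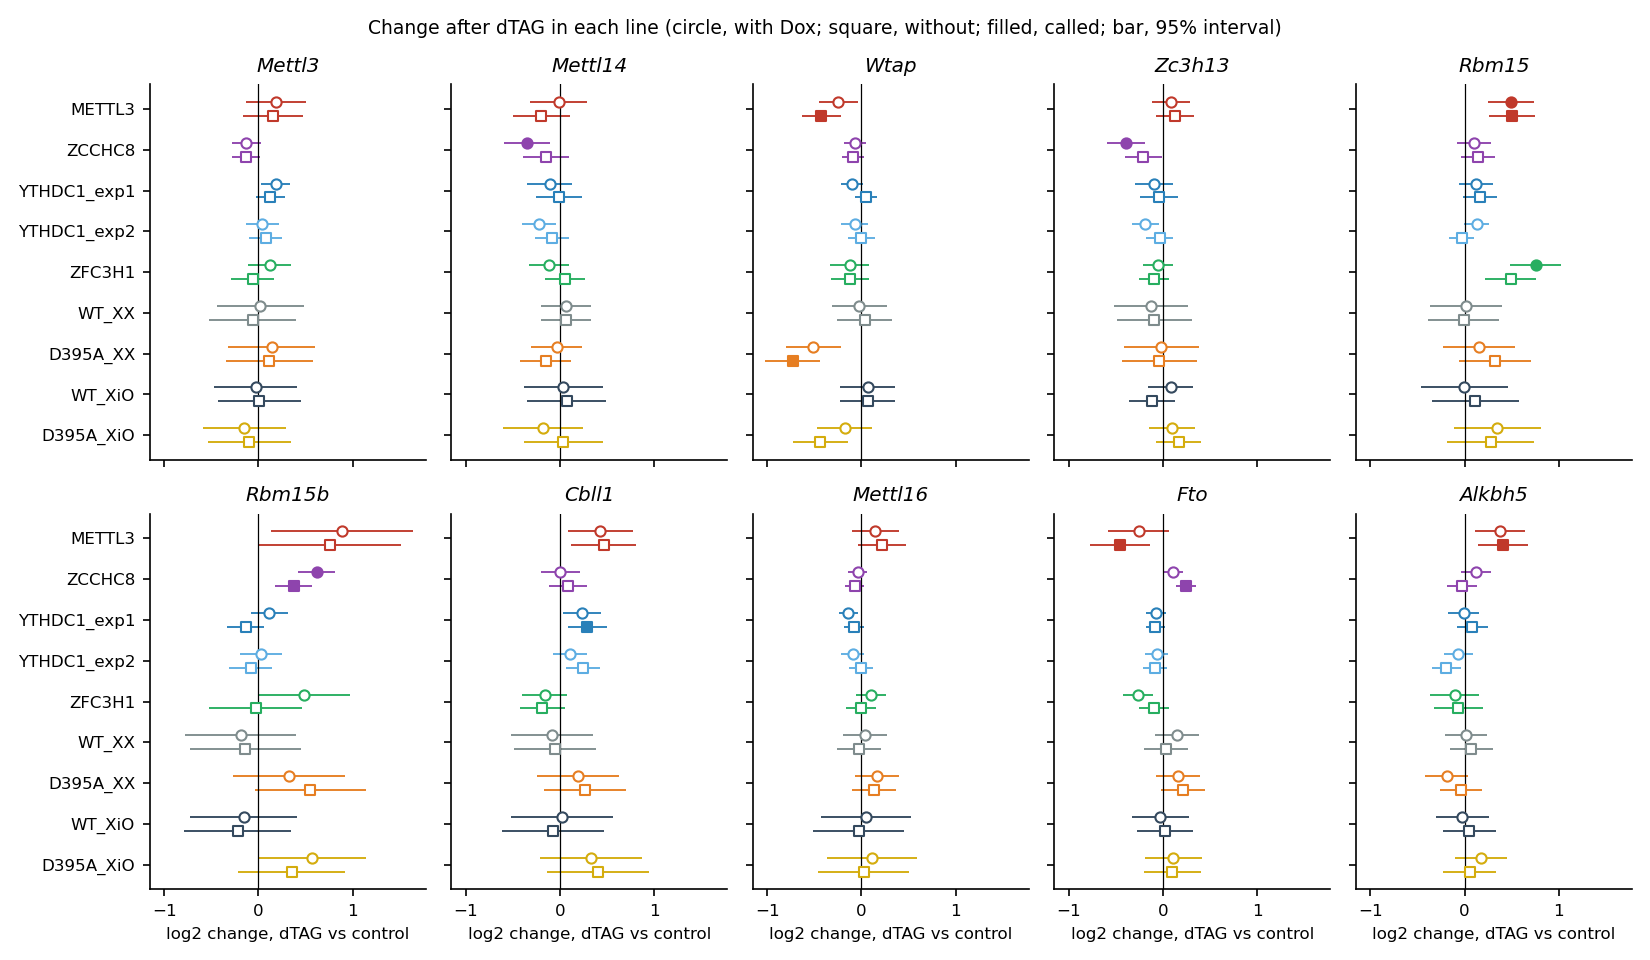
The log2 change of CPM + 1 after dTAG in each line (y axis) for each of the 10 genes, with the 95% interval as a bar, circles with Dox, squares without Dox, and filled symbols for called changes. The 13 filled symbols fall in METTL3, ZCCHC8, YTHDC1_exp1, ZFC3H1 and D395A_XX, and 5 of them belong to Rbm15 and Rbm15b.

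Of the catalytic core, Mettl3 was not called in any of the 18 comparisons of single lines. The degron removes the protein and leaves the gene intact, so its RNA is no check of the depletion. In the METTL3 line, Mettl3 was at 17.5 (G4), 24.7 (H1), 30.4 (C3) and 29.5 CPM (H5) untreated and at 16.6, 34.3, 35.6 and 29.2 CPM with dTAG. With Dox it was at 17.3, 35.2, 24.7 and 24.0 CPM, and with dTAG and Dox at 18.1, 35.1, 38.9 and 25.0 CPM. Clone G4 was the lowest in all 4 treatments, and in G4 and H5 the level with dTAG was close to that of the control. The change was 0.19 ± 0.15 (SE, n = 4 clones, limma adjusted p = 0.372) with Dox and 0.15 ± 0.15 (adjusted p = 0.451) without, below the median of all genes, and it turned to -0.081 and -0.10 with median-ratio scaling. The 95% intervals ran from -0.13 to 0.51 and from -0.17 to 0.47.

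In the transgene lines Mettl3 was at higher CPM than in their parent clone H5, which was at 24.0 to 29.5 CPM over its 4 treatments. It was at 31.8 to 48.3 CPM in WT_XX and 41.2 to 55.9 CPM in D395A_XX over 8 libraries each. It was at 62.3 to 69.1 CPM in WT_XiO and 52.7 to 79.7 CPM in D395A_XiO. The XX and XiO ranges overlapped only through a single D395A_XX library, at 55.9 CPM. These tables were scaled separately, and reads of the transgene and of the endogenous gene cannot be told apart here, so no test was made across them. After dTAG, Mettl3 moved by -0.15 to 0.14 on the log2 scale in these lines, with 0 calls.

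Mettl14 was called once. In the ZCCHC8 line it was at 35.3 (Z4F) and 34.3 CPM (Z12H) with Dox and at 31.5 and 23.3 CPM with dTAG and Dox, a change of -0.35 ± 0.11 (SE, limma adjusted p = 0.0238). The groups did not overlap, but most of the difference came from Z12H: without that clone the change was -0.16 (adjusted p = 0.382). The call was also lost with all genes above 0 in the test (adjusted p = 0.0580) and without the clone block (adjusted p = 0.0617). Without Dox the change was -0.15 ± 0.11 (adjusted p = 0.320). In the METTL3 line Mettl14 changed by -0.014 ± 0.14 with Dox and -0.20 ± 0.14 without Dox (adjusted p = 0.290), where clone H1 went from 43.4 to 25.0 CPM and clone C3 from 37.3 to 42.8 CPM. In the other lines its changes ran from -0.23 (YTHDC1_exp2 with Dox, adjusted p = 0.0852) to 0.070 (WT_XiO without Dox), with 0 calls.

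Wtap, the scaffold of the writer complex, was called lower without Dox after METTL3 loss and in XX cells left with the D395A form. In the METTL3 line without Dox it was at 185 (G4), 214 (H1), 262 (C3) and 195 CPM (H5) untreated and at 138, 153, 177 and 165 CPM with dTAG. Every clone was lower and the groups did not overlap. Wtap fell by 0.43 ± 0.095 on the log2 scale (SE, n = 4 clones, limma adjusted p = 0.00815), while the median of all genes was 0.21. The call was lost without clone G4 (-0.43, adjusted p = 0.0625) and without the clone block (adjusted p = 0.135), and median-ratio scaling gave -0.69 (adjusted p = 0.00672). With Dox it was at 163, 177, 275 and 215 CPM and at 139, 150, 210 and 197 CPM with dTAG, again lower in 4 of 4 clones. That change of -0.24 ± 0.095 was not called (adjusted p = 0.104), although median-ratio scaling gave -0.52 (adjusted p = 0.0461).

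In D395A_XX without Dox, Wtap was at 236 and 261 CPM untreated and at 143 and 157 CPM with dTAG in the 2 experiments. It fell by 0.73 ± 0.13 on the log2 scale (SE, n = 2, limma adjusted p = 0.0113), a call that was lost without either experiment (adjusted p = 0.405 and 0.542). The median of all genes was 0.12 here, and median-ratio scaling, which moved it to -0.021, gave a Wtap change of -0.89 (adjusted p = 0.0118). Of all called genes 649 were higher and 154 lower, and with that scaling 346 were higher and more were lower. With Dox it was at 214 and 255 CPM and at 155 and 172 CPM with dTAG. This change was -0.51 ± 0.13 (adjusted p = 0.0658), and it was called when experiment was a block (adjusted p = 0.00343). In D395A_XiO, Wtap was at 189 and 179 CPM untreated and at 133 and 138 CPM with dTAG, a change of -0.44 ± 0.13 (adjusted p = 0.194), which the block of experiment also called (adjusted p = 0.0119). With Dox it was at 168 and 173 CPM and at 147 and 154 CPM with dTAG (-0.18 ± 0.13, adjusted p = 0.793). In all 4 comparisons the D395A groups did not overlap, with 2 libraries a group from 1 clone in each line. Groups this small separate easily. For this and the other statements on overlap, the share of all genes without overlap was not counted.

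With the WT transgene the Wtap groups overlapped throughout. WT_XX was at 195 and 214 CPM untreated and at 195 and 224 CPM with dTAG, a change of 0.032 ± 0.13 with a 95% interval from -0.26 to 0.32. WT_XiO was at 151 and 169 CPM untreated and at 147 and 191 CPM with dTAG, a change of 0.065 ± 0.13 with an interval from -0.23 to 0.36. The difference between the D395A and WT responses was tested directly. Without Dox it was -0.76 ± 0.19 in XX cells (95% interval -1.17 to -0.35), which was not called (limma adjusted p = 0.170) except with the block of experiment (adjusted p = 0.0165). With Dox it was -0.49 ± 0.19 (adjusted p = 0.548). In XiO cells it was -0.50 ± 0.19 without Dox (adjusted p = 0.871) and -0.24 ± 0.19 with Dox, neither of which was called with or without the block. Over these differences limma called 0 of the 10 genes in each of the 4 tests. Of all genes it called 0.0150% and 0.00748% in XX cells, with and without Dox, and 0% in XiO cells. In XX cells 1 member had an unadjusted p under 0.05 with Dox and 1 without, in XiO cells 0 and 1, and edgeR called 0 in each. WT and D395A were a single clone each, so clone and transgene cannot be told apart.

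**Figure D3:**
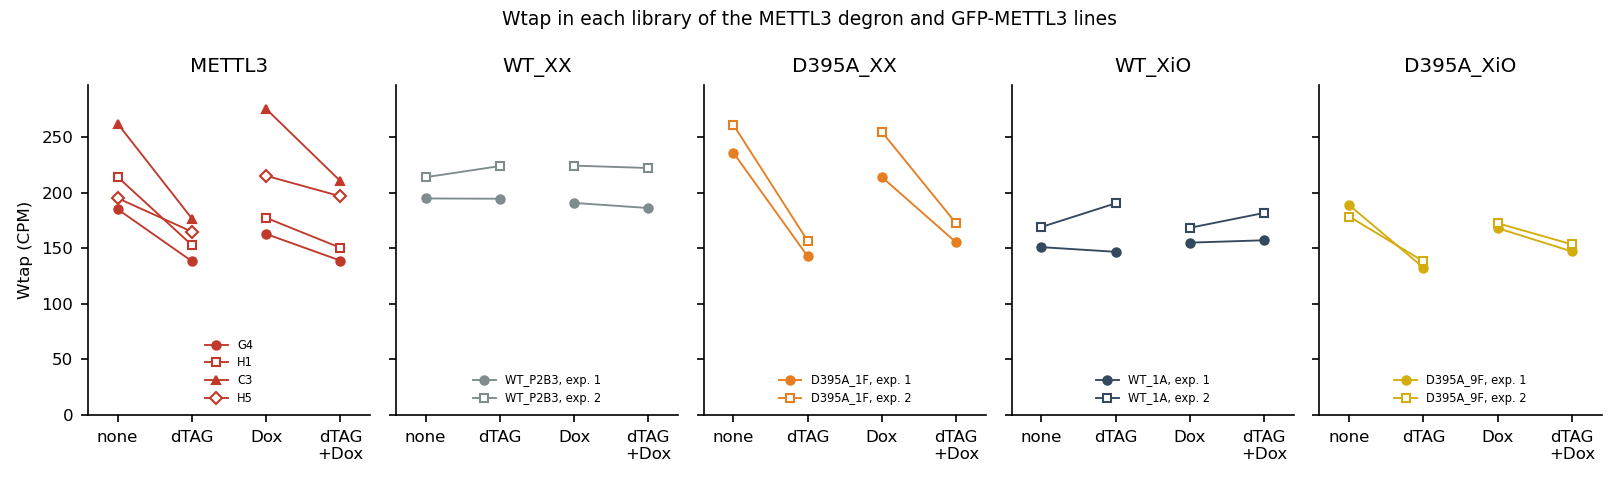
Wtap in CPM (axis from 0) in each library of the METTL3 degron clones and of the GFP-METTL3 lines, with a line from each control to the dTAG library of the same clone or experiment. The lines fall in METTL3, D395A_XX and D395A_XiO, and run both up and down in WT_XX and WT_XiO, as from 169 to 191 CPM in WT_XiO without Dox.

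In the lines without a METTL3 degron, Wtap stayed close to its controls. Its changes ran from -0.13 ± 0.092 (ZFC3H1 with Dox) to 0.046 ± 0.055 (YTHDC1_exp1 without Dox), with 0 calls. With median-ratio scaling the ZCCHC8 change with Dox was -0.18 (adjusted p = 0.0221). The YTHDC1_exp1 change with Dox (-0.097) was called with only the compared groups in the fit (adjusted p = 0.00983).

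Among all 12671 genes tested in every table, those whose log2 changes over the 18 comparisons were most like those of Wtap included Txndc16 (Pearson r = 0.941) and Pdlim1 (r = 0.930). Wtap shared second place in number of calls with Rbm15b and Fto and was taken as the first of these in the list. The points of such a comparison share library composition, so these values are a description.

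Zc3h13, a large zinc finger subunit, was lower in the ZCCHC8 line with Dox. It was at 196 (Z4F) and 153 CPM (Z12H) with Dox and at 146 and 119 CPM with dTAG and Dox. The groups did not overlap, and Zc3h13 fell by 0.39 ± 0.095 on the log2 scale (SE, limma adjusted p = 0.00384). Without Dox it was at 181 and 186 CPM untreated and at 164 and 153 CPM with dTAG, a change of -0.21 ± 0.095 that was not called (adjusted p = 0.0995). In the METTL3 line it changed by 0.081 and 0.13, values that turned negative (-0.20 and -0.13) with median-ratio scaling, and clone H1 was the highest in each treatment (350 to 414 CPM). In the other lines the changes of Zc3h13 ran from -0.19 (YTHDC1_exp2 with Dox, adjusted p = 0.0739) to 0.17 (D395A_XiO without Dox), with 0 calls.

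Rbm15 had the most calls, 3 of 18, all higher. In the METTL3 line with Dox it was at 82.4 (G4), 63.9 (H1), 68.9 (C3) and 69.6 CPM (H5) and at 99.1, 91.3, 109 and 102 CPM with dTAG. All 4 clones went up and the groups did not overlap. Rbm15 rose by 0.49 ± 0.11 on the log2 scale (SE, n = 4 clones, limma adjusted p = 0.0197), a 1.40-fold change. Without Dox it was at 71.4, 78.0, 70.2 and 73.8 CPM untreated and at 114, 90.3, 90.2 and 129 CPM with dTAG, a rise of 0.51 ± 0.11 (adjusted p = 0.00818). With median-ratio scaling these changes were 0.21 (adjusted p = 0.278) and 0.25 (adjusted p = 0.158), and edgeR called neither (adjusted p = 0.193 and 0.0870). The call with Dox was lost with any single clone left out (adjusted p = 0.0506 to 0.143), and that without Dox was lost without G4 (0.45, adjusted p = 0.0739) and without H5 (0.41, adjusted p = 0.0838).

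The largest change of Rbm15 was in the ZFC3H1 line with Dox. It was at 71.8 (8H) and 57.4 CPM (11A) with Dox and at 100 and 118 CPM with dTAG and Dox. It rose by 0.76 ± 0.12 on the log2 scale (SE, n = 2 clones, limma adjusted p = 0.00979), a 1.69-fold change, and median-ratio scaling gave 0.74 (adjusted p = 0.0118). The call was lost with all genes above 0 in the test (adjusted p = 0.0568) and without the clone block (adjusted p = 1). Without Dox it was at 90.5 and 74.0 CPM untreated and at 121 and 110 CPM with dTAG, again without overlap, a change of 0.49 ± 0.12 that missed the threshold (adjusted p = 0.0691).

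Elsewhere Rbm15 was not called. In the ZCCHC8 line it changed by 0.10 ± 0.086 with Dox and 0.15 ± 0.086 without. In D395A_XiO it went from 68.0 and 71.0 CPM with Dox to 90.9 and 86.4 CPM with dTAG and Dox, which did not overlap, a change of 0.35 ± 0.21 (adjusted p = 0.677). In D395A_XX its changes were 0.15 with Dox and 0.32 without (adjusted p = 0.319), and in the YTHDC1 and WT lines they lay between -0.030 and 0.16. The genes with changes most like those of Rbm15 over the 18 comparisons were 4933439C10Rik (Pearson r = 0.871), Naaladl1 (r = 0.864) and Nfkbil1 (r = 0.851).

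Rbm15b, the single-exon paralog of Rbm15, was called in the ZCCHC8 line in both settings. Under Dox it stood at 13.8 (Z4F) and 12.8 CPM (Z12H) and at 22.0 and 19.8 CPM with dTAG. It rose by 0.62 ± 0.093 on the log2 scale (SE, n = 2 clones, limma adjusted p = 6.68e-05), a 1.53-fold change. Without Dox it was at 13.3 and 14.7 CPM untreated and at 18.3 and 18.5 CPM with dTAG, a rise of 0.37 ± 0.093 (adjusted p = 0.00531) that was lost without Z4F (0.31, adjusted p = 0.0926). The groups did not overlap in either comparison, and the rise with Dox was called under all 8 alternatives (adjusted p from 4.34e-06 to 0.00365).

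Rbm15b varied most between clones in the METTL3 line. Under Dox it stood at 16.4 (G4), 10.9 (H1), 2.72 (C3) and 5.5 CPM (H5) and at 16.4, 18.6, 18.1 and 7.93 CPM with dTAG, so that G4 had the smallest difference and C3 the largest. The change of 0.89 ± 0.35 was the largest of the 10 genes in this line and was not called (limma adjusted p = 0.110). Without Dox it was higher in 4 of 4 clones, from 10.2, 5.51, 5.19 and 9.51 CPM to 16.3, 15.4, 7.42 and 15.1 CPM, a change of 0.75 ± 0.35 (adjusted p = 0.125). The library C3 with Dox, the lowest for Rbm15b, was also that with the smallest share of reads in short genes (0.497%), and C3 with dTAG and Dox had the largest (4.57%). With that share as a covariate the change with Dox was 0.66 (adjusted p = 0.0462). In D395A_XiO with Dox it went from 7.95 and 8.19 to 13.4 and 11.6 CPM, a change of 0.57 ± 0.26 (adjusted p = 0.473) that the block of experiment called (adjusted p = 0.0335). In D395A_XX its changes were 0.32 and 0.55 (adjusted p = 0.274), and in ZFC3H1 0.48 (adjusted p = 0.289) and -0.030. The WT and YTHDC1 lines ran from -0.22 to 0.12.

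**Figure D4:**
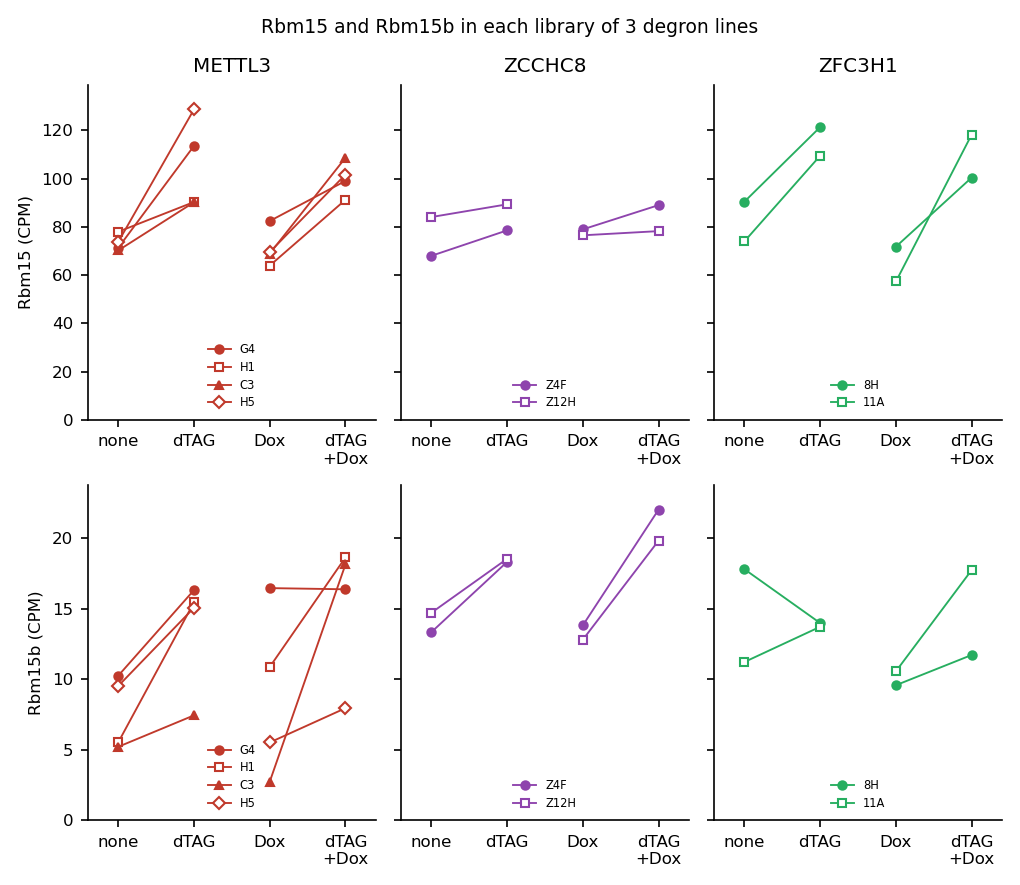
Rbm15 (top) and Rbm15b (bottom) in CPM (axes from 0) in each library of the METTL3, ZCCHC8 and ZFC3H1 lines, with a line from each control to the dTAG library of the same clone. Rbm15 goes up in every METTL3 and ZFC3H1 clone, and Rbm15b goes up in both ZCCHC8 clones with and without Dox.

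Cbll1, also called Hakai, was called once, in YTHDC1_exp1 without Dox. It was at 22.4 (Y9F) and 21.8 CPM (Y12H) untreated and at 26.9 and 27.7 CPM with dTAG, a rise of 0.29 ± 0.096 on the log2 scale (SE, limma adjusted p = 0.0438). In YTHDC1_exp2, a repeat with the same clones, it was at 31.4 and 26.6 CPM untreated and at 37.2 and 31.7 CPM with dTAG, also without overlap, a change of 0.24 ± 0.086 (adjusted p = 0.0582). The call in YTHDC1_exp1 held under 2 of 8 alternatives. It was lost without either clone (adjusted p = 0.277 and 0.335), without the clone block (0.146), with median-ratio scaling (0.0587), with all genes above 0 (0.0795) and with only the compared groups (0.0534). Cbll1 was higher in 4 of 4 METTL3 clones in both settings, by 0.43 ± 0.16 (adjusted p = 0.0949) with Dox and 0.46 ± 0.16 without (adjusted p = 0.0513), values that fell short of the threshold. Median-ratio scaling gave 0.16 (adjusted p = 0.607) and 0.21 (adjusted p = 0.425), while the change without Dox was called with the share of short genes as a covariate (0.50, adjusted p = 0.0374) and without clone H1 (0.61, adjusted p = 0.0461). Elsewhere its changes ran from -0.19 (ZFC3H1 without Dox) to 0.40 (D395A_XiO without Dox, adjusted p = 0.61).

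Mettl16 was not called by limma in any comparison. Its changes ran from -0.14 ± 0.048 in YTHDC1_exp1 with Dox (adjusted p = 0.0532) to 0.22 ± 0.12 in the METTL3 line without Dox (adjusted p = 0.178). In YTHDC1_exp1 with Dox it was at 240 and 230 CPM and at 216 and 210 CPM with dTAG, without overlap, and both edgeR (adjusted p = 0.0391) and median-ratio scaling (adjusted p = 0.0467) called this change. Its sign in the METTL3 line turned with median-ratio scaling (-0.13 with Dox and -0.043 without).

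Of the erasers, Fto was called in opposite directions in different lines. Without Dox the METTL3 clones were at 558 (G4), 404 (H1), 777 (C3) and 703 CPM (H5) untreated and at 454, 421, 490 and 371 CPM with dTAG. It fell by 0.46 ± 0.15 on the log2 scale (SE, n = 4 clones, limma adjusted p = 0.0434), with the groups overlapping and clone H1 at 404 CPM before and 421 CPM after. The call was lost without H5 (-0.30, adjusted p = 0.253), without C3 (-0.39, adjusted p = 0.111), without G4 (-0.51, adjusted p = 0.100) and without the clone block (adjusted p = 0.121), and median-ratio scaling gave -0.72 (adjusted p = 0.0187). With Dox the change was -0.26 (adjusted p = 0.244). In the ZCCHC8 line without Dox it was at 750 and 750 CPM untreated and at 898 (Z4F) and 876 CPM (Z12H) with dTAG, a rise of 0.24 ± 0.049 (adjusted p = 0.00124) that all 8 alternatives called. With Dox the ZCCHC8 change was 0.10 ± 0.049 (adjusted p = 0.109), and median-ratio scaling turned it to -0.014. In the other lines its changes ran from -0.26 ± 0.072 (ZFC3H1 with Dox, adjusted p = 0.0833) to 0.21 (D395A_XX without Dox, adjusted p = 0.284), with 0 calls, and those of D395A_XiO turned from 0.11 and 0.097 to -0.045 and -0.060 with median-ratio scaling.

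Alkbh5 was called once, in the METTL3 line without Dox. It was at 40.8, 39.6, 35.5 and 32.4 CPM untreated and at 50.1, 51.5, 40.4 and 56.9 CPM with dTAG, higher in 4 of 4 clones. It rose by 0.41 ± 0.12 on the log2 scale (SE, limma adjusted p = 0.0297), and with median-ratio scaling the change was 0.16 (adjusted p = 0.323). The call held under 4 of 11 alternatives. It was lost without the clone block and without G4 (adjusted p = 0.0957), H1 (0.0848) or H5 (0.159). With Dox it was also higher in 4 of 4 clones (0.38 ± 0.12, adjusted p = 0.0638). In the other lines its changes ran from -0.19 (YTHDC1_exp2 without Dox and D395A_XX with Dox) to 0.18 (D395A_XiO with Dox).

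ZCCHC8 and YTHDC1_exp1 share a table, so the difference between their responses was tested in the same fit. With Dox 2 of the 10 genes were called, where 29.6% of all genes were called, and without Dox 2 of 10, against 25.1%. The response of Rbm15b was larger in the ZCCHC8 line by 0.50 ± 0.13 with Dox (limma adjusted p = 0.00905) and by 0.51 ± 0.13 without (adjusted p = 0.00923). In YTHDC1_exp1 itself Rbm15b went from 15.0 and 13.6 to 16.7 and 14.5 CPM with Dox and from 17.5 and 16.2 to 15.5 and 14.9 CPM without. Fto differed by 0.32 ± 0.070 without Dox (adjusted p = 0.00295). Mettl3 differed by -0.31 ± 0.10 with Dox (adjusted p = 0.0296), with 41.4 and 37.5 CPM going to 37 and 35 CPM in the ZCCHC8 line and 42.2 and 38.0 CPM to 50.0 and 41.5 CPM in YTHDC1_exp1. Neither change of Mettl3 was called on its own by limma, although that in the ZCCHC8 line was called with median-ratio scaling (-0.24, adjusted p = 0.0109) and that in YTHDC1_exp1 with only the compared groups in the fit (adjusted p = 0.00387). These differences rest on few clones: that of Mettl3 was lost with any clone left out (adjusted p = 0.0791 to 0.242), that of Rbm15b with Dox without Y9F or Y12H (0.0699 and 0.0957), that of Rbm15b without Dox without Y9F, Y12H or Z4F (0.104, 0.0661 and 0.0582), and that of Fto without Y9F (0.0818).

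The other genes of the pathway were taken as lists. Of 6 further genes of RNA adenosine methylation, 5 were tested in each table (all 6 in the XiO table, where Trmt112 also passed the filter). In the METTL3 line 0 of 5 were called with Dox and 1 without, with list medians of 0.18 and 0.25 against 0.23 and 0.21 for all genes. The one called was 1110037F02Rik, the older name of Virma, whose protein VIRMA is the largest subunit of the writer complex. It rose by 0.31 ± 0.083 (limma adjusted p = 0.0196), but the call was lost with median-ratio scaling (0.051, adjusted p = 0.776), with edgeR (0.12, adjusted p = 0.456) and without the clone block (adjusted p = 0.0581). After YTHDC1 loss 1110037F02Rik rose in both experiments. Without Dox the rise was 0.35 ± 0.059 in YTHDC1_exp1 (adjusted p = 0.00065) and 0.36 ± 0.066 in YTHDC1_exp2 (adjusted p = 0.000707), with both clones higher in each. With Dox the rise was 0.24 (adjusted p = 0.0125) and 0.26 (adjusted p = 0.0124). Of these 4 calls, that in YTHDC1_exp1 without Dox held without the clone block (adjusted p = 0.0155), and the others did not (0.105 to 0.707). In the transgene lines limma called 0 of the further genes. The block of experiment called 1110037F02Rik higher in D395A_XiO with Dox (0.32, adjusted p = 0.0334). In the ZCCHC8 line it fell without Dox by 0.16 (adjusted p = 0.0496), a call lost with edgeR (adjusted p = 0.0602) and without the clone block (adjusted p = 0.17), while Mettl5, which methylates 18S rRNA, rose by 0.39 with Dox (adjusted p = 0.00217) and 0.37 without (adjusted p = 0.00413).

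All 12 m6A reader genes were tested. After METTL3 depletion 1 was called lower with Dox, and 1 higher and 3 lower without Dox, with list medians of 0.18 and 0.23 against 0.23 and 0.21 for all genes, of which 10.5% and 23.3% were called. Igf2bp3, which binds and stabilises methylated mRNA in the cytoplasm, fell by 0.35 ± 0.097 with Dox (limma adjusted p = 0.0409) and by 0.50 ± 0.097 without (adjusted p = 0.00422). Igf2bp3 also fell after YTHDC1 loss, in YTHDC1_exp1 by 0.24 with Dox (adjusted p = 0.0211) and 0.33 without (adjusted p = 0.00223), and in YTHDC1_exp2 by 0.24 (adjusted p = 0.042) and 0.34 (adjusted p = 0.00382). None of these 4 calls held without the clone block (adjusted p = 0.175 to 0.607). Hnrnpc (-0.35, adjusted p = 0.0386) and Elavl1 (-0.29, adjusted p = 0.0112), which encode nuclear RNA-binding proteins, were the others that fell in the METTL3 line without Dox. Without the clone block the calls of Hnrnpc (adjusted p = 0.133) and Elavl1 (adjusted p = 0.0626) and that of Igf2bp3 with Dox (adjusted p = 0.119) were lost. Median-ratio scaling gave larger changes, of -0.61 for Hnrnpc, -0.55 for Elavl1, and -0.62 (with Dox) and -0.76 (without) for Igf2bp3. Ythdf2, whose protein targets methylated mRNA for decay, rose there by 0.51 ± 0.13 (adjusted p = 0.0146), which median-ratio scaling reduced to 0.25 (adjusted p = 0.188). Ythdf2 rose in both YTHDC1 experiments as well, by 0.33 (adjusted p = 0.00301) and 0.40 (adjusted p = 0.00039) with Dox and by 0.30 (adjusted p = 0.00489) and 0.48 (adjusted p = 5.12e-05) without, and again none of the 4 calls held without the clone block (adjusted p = 0.0827 to 0.2).

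In the YTHDC1 comparisons 4 of 12 readers were called in YTHDC1_exp1 with Dox and 4 without, and 5 and 4 in YTHDC1_exp2, with list medians of -0.13, -0.083, -0.041 and -0.011. The background was 14.7% to 19.0% of all genes. Both experiments used the same clones, so they are repeats of the same cells. For ZCCHC8 2 and 1 of 12 readers were called, all lower, against 40.4% and 36.1% of all genes. In the ZFC3H1 line and the transgene lines limma called 0. With the block of experiment Ythdf2 was called in D395A_XiO with Dox (0.37, adjusted p = 0.0446) and Igf2bp3 in D395A_XiO without Dox (-0.37, adjusted p = 0.00991).

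The S-adenosylmethionine list holds 4 genes for the methyl donor that every writer uses. Mat2a, which encodes the catalytic subunit of the synthetase, had the largest called change of the genes named here. In the ZFC3H1 line it was at 363 (8H) and 247 CPM (11A) untreated and at 570 and 485 CPM with dTAG. Under Dox it stood at 336 and 276 CPM and at 579 and 556 CPM with dTAG. The groups did not overlap. Mat2a rose by 0.90 ± 0.10 with Dox (SE, n = 2 clones, limma adjusted p = 0.00228) and by 0.81 ± 0.10 without (adjusted p = 0.00448), where 3.15% and 2.15% of all genes were called, and neither call held without the clone block (adjusted p = 1 in both). Mettl16, its methyltransferase, changed in the same libraries by 0.10 ± 0.072 (adjusted p = 0.504) and -0.0015 ± 0.072 (adjusted p = 0.995). After METTL3 loss limma called 0 of the 4 with and without Dox (0 and 2 at an unadjusted p under 0.05), while without Dox edgeR called Mat2b, a regulatory subunit of the synthetase, lower (-0.42, adjusted p = 0.0143), as did median-ratio scaling (-0.48, adjusted p = 0.0089). After YTHDC1 loss limma called 1 of 4, Ahcy, which removes the by-product of methylation, in YTHDC1_exp1 without Dox (-0.29, adjusted p = 0.0176), a call that was lost without the clone block (adjusted p = 0.17). In YTHDC1_exp2 with Dox edgeR called Mat2b (-0.22, adjusted p = 0.0425). In the transgene lines limma called 0 of the 4. There Mat2b was called lower in D395A_XX without Dox by edgeR (-0.49, adjusted p = 0.027) and with median-ratio scaling (-0.51, adjusted p = 0.0186). In the ZCCHC8 line 3 of 4 fell with Dox and 2 of 4 without, Ahcy by 0.31 (adjusted p = 0.00516) and 0.42 (adjusted p = 0.000708), where 40.4% and 36.1% of all genes were called. Without the clone block the fall of Ahcy was called without Dox only (adjusted p = 0.0202).

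**Figure D5:**
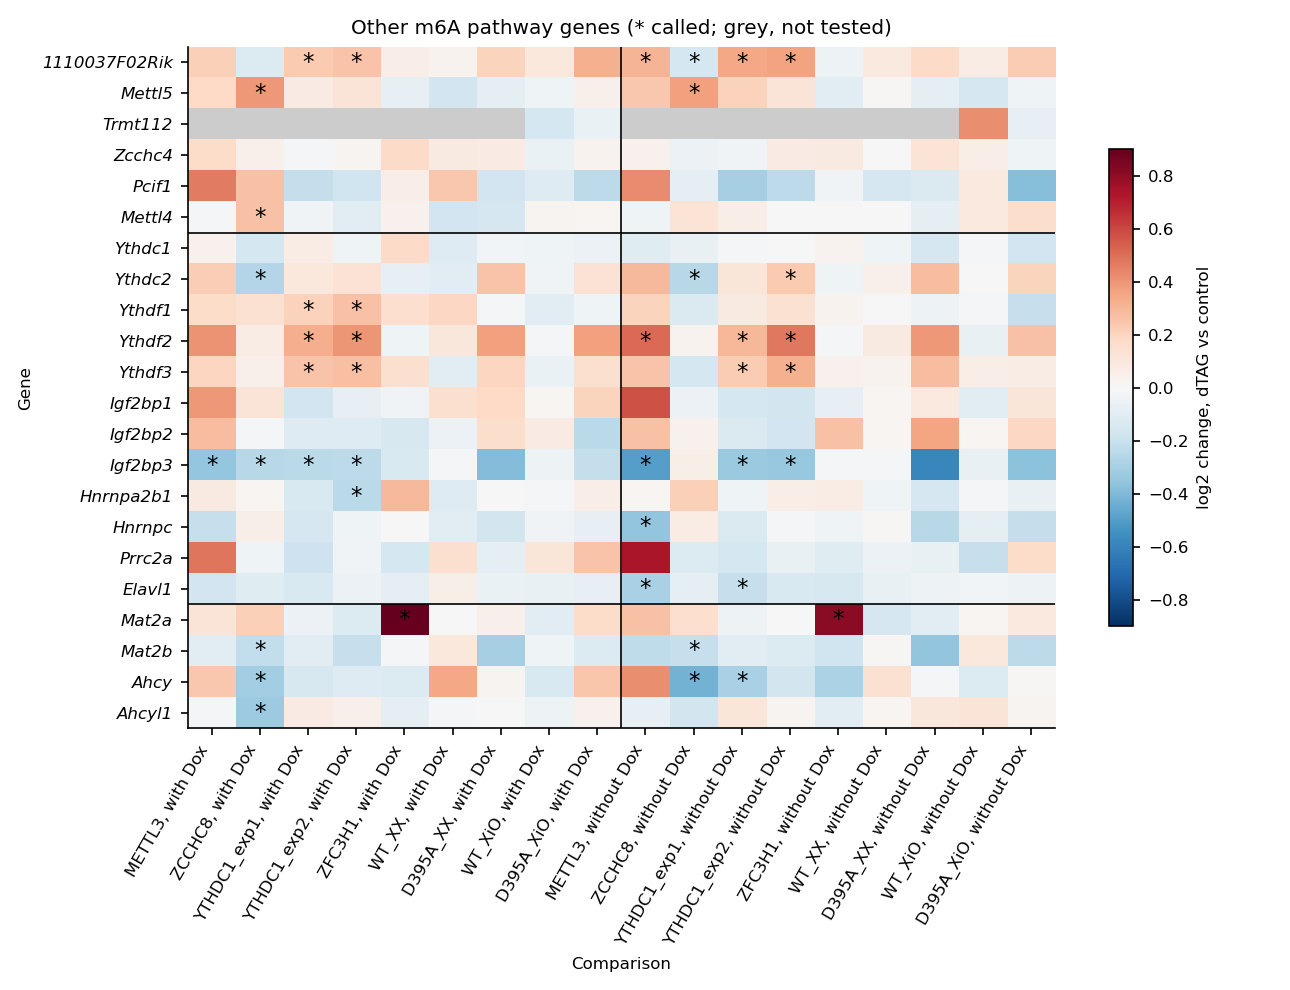
The log2 change of CPM + 1 after dTAG (colour) for the further methylation genes, the readers and the methyl donor genes (rows, separated by lines) in the 18 comparisons (columns), with called changes starred and untested genes in grey. Mat2a has its largest values in ZFC3H1, and 1110037F02Rik, Ythdf2, Ythdf3 and Igf2bp3 are starred in both YTHDC1 experiments.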

How the data were processed

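Chromatin-associated RNA was measured in 80 libraries. Per the study's methods rRNA reads were filtered by the authors (bowtie2) and the rest mapped by STAR to an N-masked mm10 genome, of which unique alignments were counted by strand with featureCounts over whole transcript spans, introns included. The deposited tables (6, of 22556 genes) hold CPM that the authors computed with edgeR. The submitters' processing notes name Bowtie2, STAR, featureCounts and edgeR. Low values were whole multiples of a single step (tolerance 0.1 read) in 100% of cases, so reads per gene were recovered. Counting without molecular identifiers means that depth covers counting error only. Another 12 columns match no sample and were not used here, and allelic ratio tables were not used here because all 10 genes are autosomal.

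In the deposited annotation (GRCm38, starts counted from 1) the genes are Mettl3 at chr14:52294842-52305124, Mettl14 at chr3:123368295-123385990, Wtap at chr17:12966799-12992259, Zc3h13 at chr14:75284373-75344426, Rbm15 at chr3:107326110-107333289, Rbm15b at chr9:106883985-106887000, Cbll1 at chr12:31484829-31499616, Mettl16 at chr11:74770863-74818692, Fto at chr8:91313525-91668433 and Alkbh5 at chr11:60537683-60558512. None overlaps another gene on its own strand. All 10 symbols matched RefSeq.

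limma 3.58.1 in R 4.3.3 (lmFit, eBayes with trend) was fitted to log2(CPM + 1), with a pseudocount of 1 CPM, leaving out genes whose mean was under 1 CPM, on all libraries of a table, with clone as a block in the degron lines and none in the transgene lines. Such log2 changes understate the change of low genes. P values are two-sided and BH adjusted over all genes. Groups come from the labels. The same clone was compared with itself in the degron lines, and residual profiles of a clone correlated between treatments with a mean r of 0.294 to 0.602 over the METTL3 clones (lowest pair -0.18) and 0.369 to 0.866 in the other degron lines. In the transgene lines the replicate number was taken as the experiment, with a mean r of 0.568 to 0.885. The block of experiment gives the WT and D395A clones of a table the same shift between replicates, an assumption that was not tested. Xist with Dox went from 5729 to 2786 CPM between the replicates of D395A_XX and from 2531 to 5479 CPM in WT_XX. The fit was tested on simulated data. The alternatives were median-ratio scaling, a pseudocount of 0.5, all genes above 0, the block left out or added, edgeR 4.0.16 (quasi-likelihood, TMM), the compared groups alone, each clone or experiment left out, and, for METTL3, the share of reads in genes under 3 kb as a covariate. Members, lists and tests were chosen with earlier results of these data known. All 10 genes were tested in every comparison, with uncalled values given singly or as a range; of the lists, those called in the METTL3 line or the 3 largest; the 3 most like genes were found for the 2 members with most calls, of which 1 is not reported here. Clones are separate cell lines, while transgene replicates are the same clone, so that their p values measure spread between experiments only. Among 56 pairs of replicates 0 held identical values, and chi-square over degrees of freedom was at least 8.05.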

Additional observations from a re-analysis of the deposited data

Results flagged for a closer look

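Among the 4 clones of the METTL3 line, 40 sets of 4 values (10 genes by 4 treatments) were tested for a sample far from the others, and 3 passed Dixon's 95% limit. Chance passes about 1 set in 20. Rbm15b with dTAG in clone C3, at 7.42 CPM against 15.1 to 16.3 CPM in the other clones, had a gap of 0.896 of the range. Rbm15b with dTAG and Dox in clone H5, at 7.93 CPM against 16.4 to 18.6 CPM, had a gap of 0.844. Zc3h13 with dTAG in clone H1, at 376 CPM against 277 to 288 CPM, had a gap of 0.872.

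By the limma test of the difference between the ZCCHC8 and YTHDC1_exp1 responses, 2 of 10 members were called with Dox and 2 without. Of all genes 29.6% and 25.1% were called in the same tests, and the member differences rest on few clones. The log2 difference (ZCCHC8 minus YTHDC1_exp1) was -0.31 for Mettl3 with Dox, 0.50 for Rbm15b with Dox, 0.51 for Rbm15b without Dox and 0.32 for Fto without Dox.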

How the results depend on the processing

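Over all comparisons 17 member values were called, and none reversed its sign under any alternative run. A pseudocount of 0.5 kept 17, edgeR 14, all genes above 0 and median-ratio scaling 13 each. Leaving out a clone or an experiment, or the clone block, removed further calls, as given below. Of the 223 values not called, 35 changed sign with median-ratio scaling and 28 with edgeR. Depth was not limiting, with at least 58 reads of each gene in every library, but there were 2 clones or experiments a group outside the METTL3 line. The cause of each change below was not tested.

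With METTL3 depletion and Dox, 1 member was called, and 0 without the clone block, with edgeR or with only the groups compared, 2 with the share of reads in short genes as a covariate, and 0 to 0 with a clone left out. Without Dox 4 became 2 with median-ratio scaling or edgeR, 1 without the block, and 0 to 4 with a clone left out (0 without G4). For ZCCHC8, 3 became 6 with median-ratio scaling (with Dox), and 2 became 4 with only the groups compared and 1 to 2 with a clone left out (without Dox). For YTHDC1_exp1 with Dox, 0 became 1 with median-ratio scaling, all genes above 0 or edgeR, and 7 with only the groups compared; without Dox 1 became 0 under median-ratio scaling, all genes above 0, no block, only the groups compared, and 0 to 0 with a clone left out. For ZCCHC8 minus YTHDC1_exp1, 2 became 0 without the block and 0 to 1 with a clone left out (with Dox), and 1 and 0 to 2 (without Dox). For YTHDC1_exp2, 0 became 2 with only the groups compared (with Dox) and 1 with median-ratio scaling or edgeR (without Dox). For ZFC3H1, 1 became 0 with all genes above 0 or no block and 3 with only the groups compared (with Dox), and 0 became 1 with only the groups compared (without Dox). For D395A_XX without Dox, 1 became 0 to 0 with an experiment left out, where the lone sample is assumed to vary like the other groups.

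Experiment as a replicate block called 1 member in place of 0 in D395A_XX with Dox, in D395A_XX minus WT_XX without Dox, and in D395A_XiO with and without Dox, and changed no other call. Leaving out the clone block in the paired degron lines kept 6 of 16 calls. Leaving out a clone was not run for YTHDC1_exp2 and ZFC3H1, where no residual degrees of freedom remain.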
